A study of Mus musculus with 8 samples.

Results

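The sarcomeric myosin heavy chains were followed on 8 one-colour Agilent mouse arrays. They are Myh1, Myh2, Myh3, Myh4, Myh6, Myh7, Myh7b and Myh8, chosen by gene name. All 8 genes were on the array, out of 37074 gene names, and 19 of its 56605 probes carried their names, each spotted once. The arrays were hybridised with Cy3-labelled RNA from proliferating C2C12 cells, an established mouse myoblast line, at passage 10. In 4 cultures Pvt1, a long non-coding RNA, had been silenced by transfection of a pair of antisense LNA GapmeRs with Lipofectamine 2000. The 4 control cultures (Mock) had received negative control GapmeRs with the same reagent, so both groups had been transfected. The labels call the cultures biological replicates, all of 1 cell line, and the study's aim here was to find which genes respond when Pvt1 is silenced.

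Myosin heavy chains form the thick filament of the sarcomere and carry the motor that pulls on actin, each held together with light chains. Muscle uses a family of such genes. Myh3 and Myh8 are the embryonic and perinatal forms, Myh1, Myh2 and Myh4 are the fast forms of adult fibres, Myh7 serves slow fibres and the ventricle, Myh6 is the alpha form of the heart, and Myh7b is a slow-tonic relative. Dividing myoblasts have not yet built sarcomeres and rely on non-muscle myosins such as Myh9 and Myh10, while the sarcomeric genes are switched on as the cells fuse into myotubes. In bulk RNA, a smaller number of cells that express such a gene and less of its RNA in each cell cannot be told apart.

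In these myoblasts most myosin heavy chain probes lay at or near background. The 3′ probes of 4 genes, Myh3, Myh6, Myh7b and Myh8, were well above background on all 8 arrays, and none of them passed the test for a change. The Myh1 probe was called lower in the silenced cultures, from a level in the controls that was itself close to the limit of measurement. No myosin heavy chain probe was called higher.

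The probes were 60 bases long, and their sequences show how well the family members can be told apart. At the 3′ end, the probe of Myh8 (chr11:67121925-67121984, mm9, plus strand) and the beginning of the Myh1 probe (chr11:67037938-67037971, plus strand) shared 19 bases in a row, shown in capitals. The Myh1 sequence is printed up to the earliest stop codon in a frame that has none in the Myh8 probe. The Myh7b probe (chr2:155459115-155459174, plus strand) had no stop codon in any frame, and is shown because it was bright on every array.
Myh8: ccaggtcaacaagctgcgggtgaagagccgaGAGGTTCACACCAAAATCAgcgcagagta
Myh1: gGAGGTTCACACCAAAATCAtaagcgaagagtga
Myh7b: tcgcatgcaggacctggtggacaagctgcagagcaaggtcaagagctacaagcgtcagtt

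Among the 190 pairs formed by the 19 probes and the probe of Myh13, the neighbouring extraocular gene, that was the only shared run of 15 bases or more, and the median of the longest shared run was 6 bases. The 5′ probes of Myh2 (chr11:66986757-66986816, plus strand) and Myh8 (chr11:67092501-67092560, plus strand) are shown because neither gave a signal on any array. They held 12 bases in common, in capitals, and were identical at 42 of 57 bases when aligned without gaps.
Myh2: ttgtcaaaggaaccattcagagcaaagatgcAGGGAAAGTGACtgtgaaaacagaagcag
Myh8: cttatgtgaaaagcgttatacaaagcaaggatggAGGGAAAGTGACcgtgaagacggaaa

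Per the files, 5 of the 8 genes lie together on chromosome 11, in the order Myh3, Myh2, Myh1, Myh4, Myh8, with probes from base 66893627 to base 67121984 of mm9 on the plus strand. Myh6 and Myh7 are neighbours on chromosome 14, on the minus strand, and Myh7b is on chromosome 2. Of the 19 probes, 13 carried a RefSeq accession. The other 6 (Myh2 at base 951 of its transcript, Myh4 at base 160, Myh7 at base 3534, Myh7b at base 101, and Myh8 at bases 2202 and 2970) were designed on other transcript models. The Myh4 probe at base 160 covers 1816 bases of the genome with its 60 bases, so it spans a gap in the genome, as does the Myh7b probe at base 101 over 141 bases. Whether single probes lie in exons, introns or UTRs was not analysed here.

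The arrays themselves were first checked. On the normalized log2 scale the brightest Pvt1 probe read between 9.65 and 10.31 in the 4 controls and between 6.39 and 7.85 in the 4 silenced cultures, and it fell by 2.86 (SE 0.32, limma adjusted p 0.000682). Between 36.8% and 45.4% of spots were well above background, a stricter flag of the scanner software than positive and significant. The lowest of these shares belonged to silenced replicate 4, where 51.6% of spots were positive and significant, against 58.8% to 62.5% on the other arrays. Over all 28649 probes tested, 1373 (4.79%) were called higher and 5269 (18.4%) lower at an adjusted p of 0.05, with a median change of -0.19. This split moved with the scaling, to 7075 higher and 4365 lower after a shift to the 75th percentile (median 0.16) and to 5416 and 5258 with cyclic loess (median 0.02). It also moved with single arrays. The higher count was 684 to 859 without any 1 of control replicates 1, 2 and 4 or silenced replicates 1 to 3, and 3572 without silenced replicate 4, and the lower count was 3077 without control replicate 2 and 2995 without control replicate 4. Group and slide position were nearly aligned, since control replicates 1 to 3 and silenced replicate 1 lay in row 1 of the slide and the other 4 arrays in row 2. With the row as a block 534 probes (1.86%) were called higher and 2572 (8.98%) lower. Of 10 myoblast markers 9 were well above background on all 8 arrays, all but Myf5. Of 10 liver markers, each control array had 1 to 2 well above background and each silenced array had 6 to 8, and their mean log2 signal without mask ran from 4.63 to 4.79 in the controls and from 7.38 to 7.67 in the silenced cultures. Apoa1 and Apob were well above background on no array. The part of this signal in the results below was not tested.

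Detection of the 19 probes differed by their place on the transcript. Each gene had one probe near the 3′ end, starting between bases 5696 and 6003 of its transcript. Of these 8 probes, 4 were well above background on all 8 arrays, and 5 were positive and significant on all 8. The other 11 probes started between bases 101 and 3534, counted on differing transcript models. A RefSeq accession was carried by all 8 of the 3′ probes and by 5 of these 11. None of these 11 was well above background on all 8 arrays, and 6 of them were not positive and significant on any array. In all, 11 of the 19 probes were well above background on no array.

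**Figure D1:**
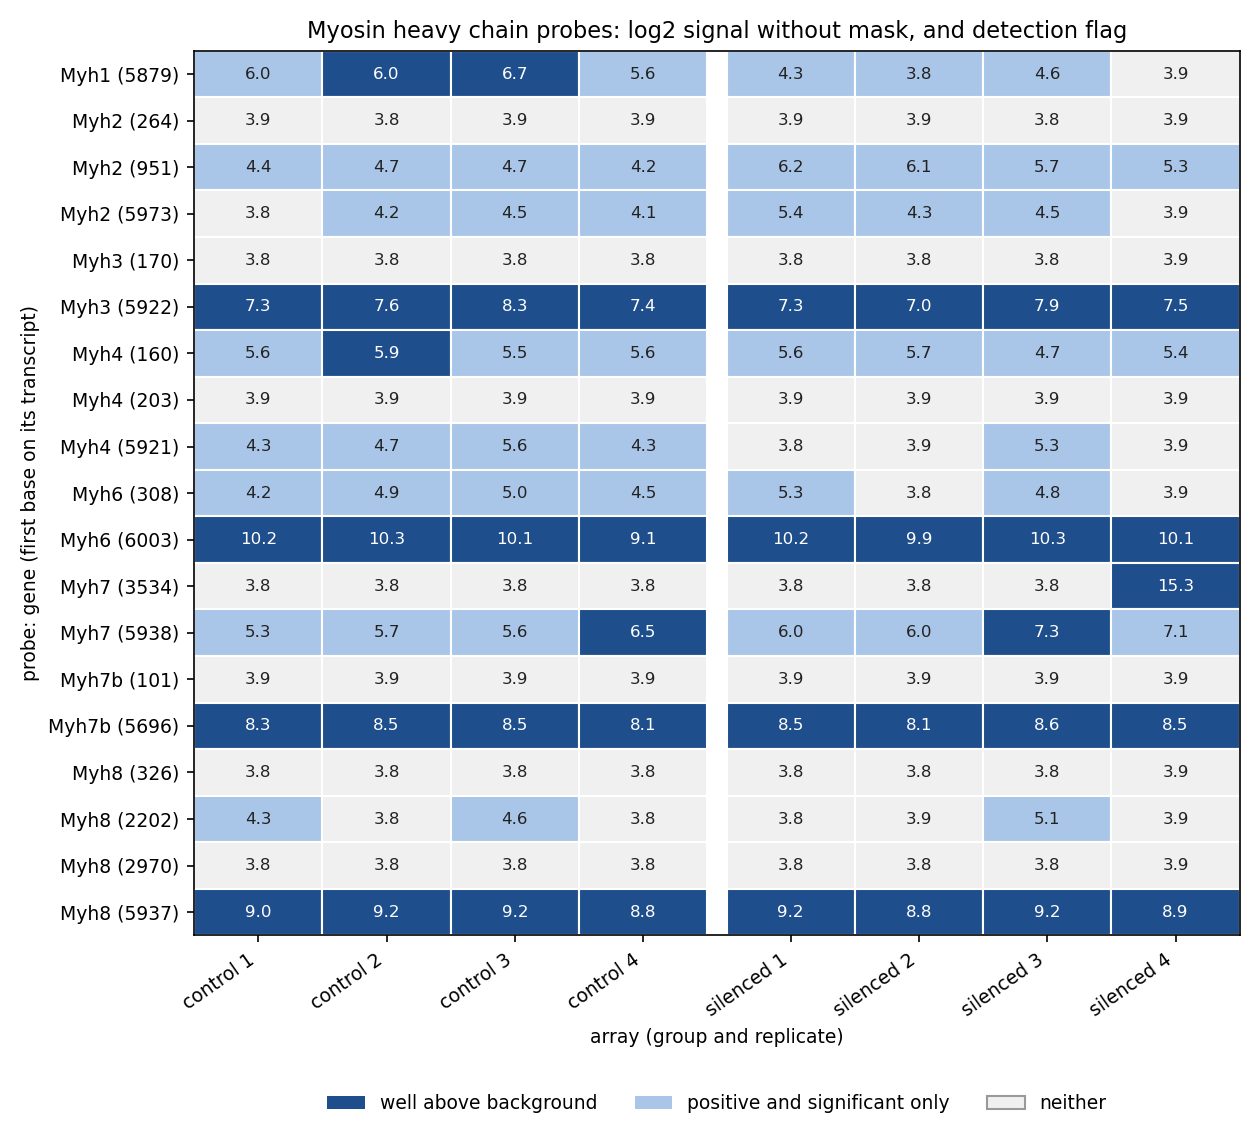
Log2 signal without mask (number in each cell) of the 19 myosin heavy chain probes (rows: gene and first base on the transcript) on the 4 control and 4 silenced arrays (columns). Dark cells were well above background, light blue cells positive and significant only, and grey cells neither. The 4 dark rows belong to Myh3, Myh6, Myh7b and Myh8, and the single dark cell at 15.3 is a Myh7 spot on silenced replicate 4.

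Within the genes of the 4 bright probes the 3′ probe was also the one detected most often. For Myh3, the 3′ probe gave log2 signals without mask from 6.97 to 8.33, and the probe at base 170 gave 3.80 to 3.88 on all 8 arrays, which is the floor of the scanner values. For Myh8, the 3′ probe gave 8.83 to 9.24, and of its 3 other probes those at bases 326 and 2970 were positive and significant on no array while that at base 2202 was so on 3 arrays. For Myh7b, the 3′ probe gave 8.07 to 8.61 and the probe at base 101 gave 3.88 to 3.93. Myh2 and Myh4 went the other way. The Myh2 probe at base 951 was positive and significant on 8 arrays and its 3′ probe on 6, and the Myh4 probe at base 160 was so on 8 arrays and its 3′ probe on 5. Signals of different probes are not comparable as amounts of RNA, so these values say only which probes were detected.

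**Figure D2:**
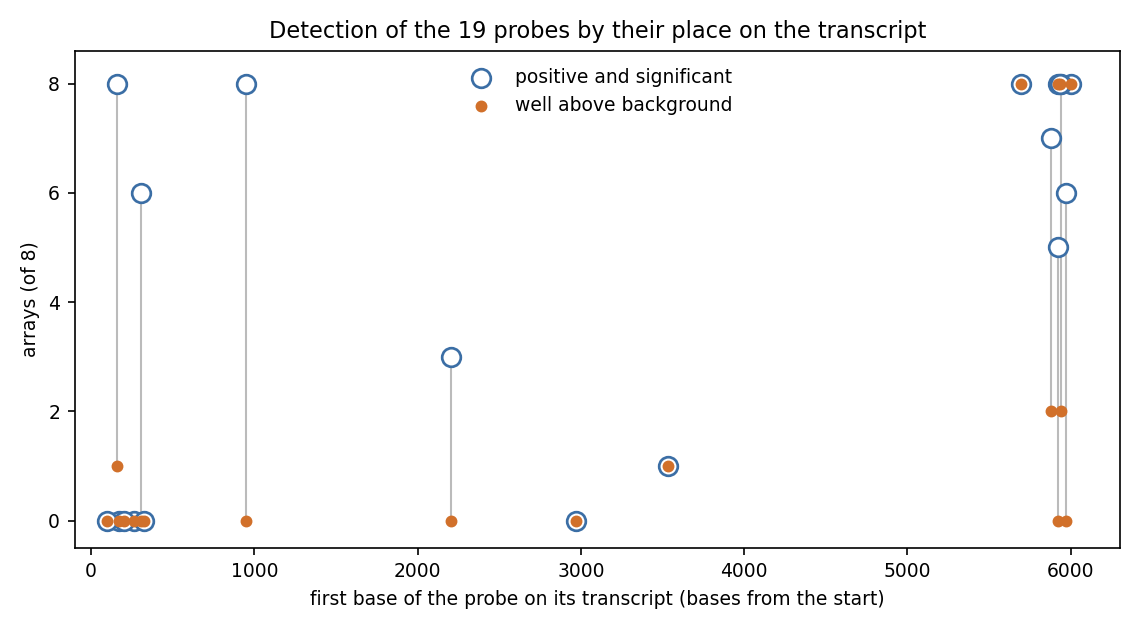
Number of arrays (of 8) on which each of the 19 probes was positive and significant (open circles) or well above background (filled circles), against the first base of the probe on its transcript. All filled circles at 8 arrays lie at or beyond base 5696.

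The comparison of silenced with control cultures could be made for 9 of the 19 probes, at least 1 for each of the 8 genes, since a probe needed 3 values of 4 in each group. Of these 9, 1 (Myh1) was called lower and 0 were called higher, against 18.4% and 4.79% of all probes. At an unadjusted p of 0.05 the methods' t-test also gave 0 higher and 1 lower, where 7.79% of all probes were higher and 23.7% lower. The median change of the 9 was -0.22, beside -0.19 over all probes tested. It was 0.01 without silenced replicate 4 (-0.03 over all probes), -0.38 without silenced replicate 3 (-0.28) and 0.07 after the shift to the 75th percentile (0.16). It was 0.14 with cyclic loess (0.02), 0.12 in the authors' series table (0.0067) and 0.11 without mask (0.0067). With the row of the slide as a block it was -0.07 (-0.17). The groups did not overlap for 1 of the 9, as for 28.2% of all probes.

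**Figure D3:**
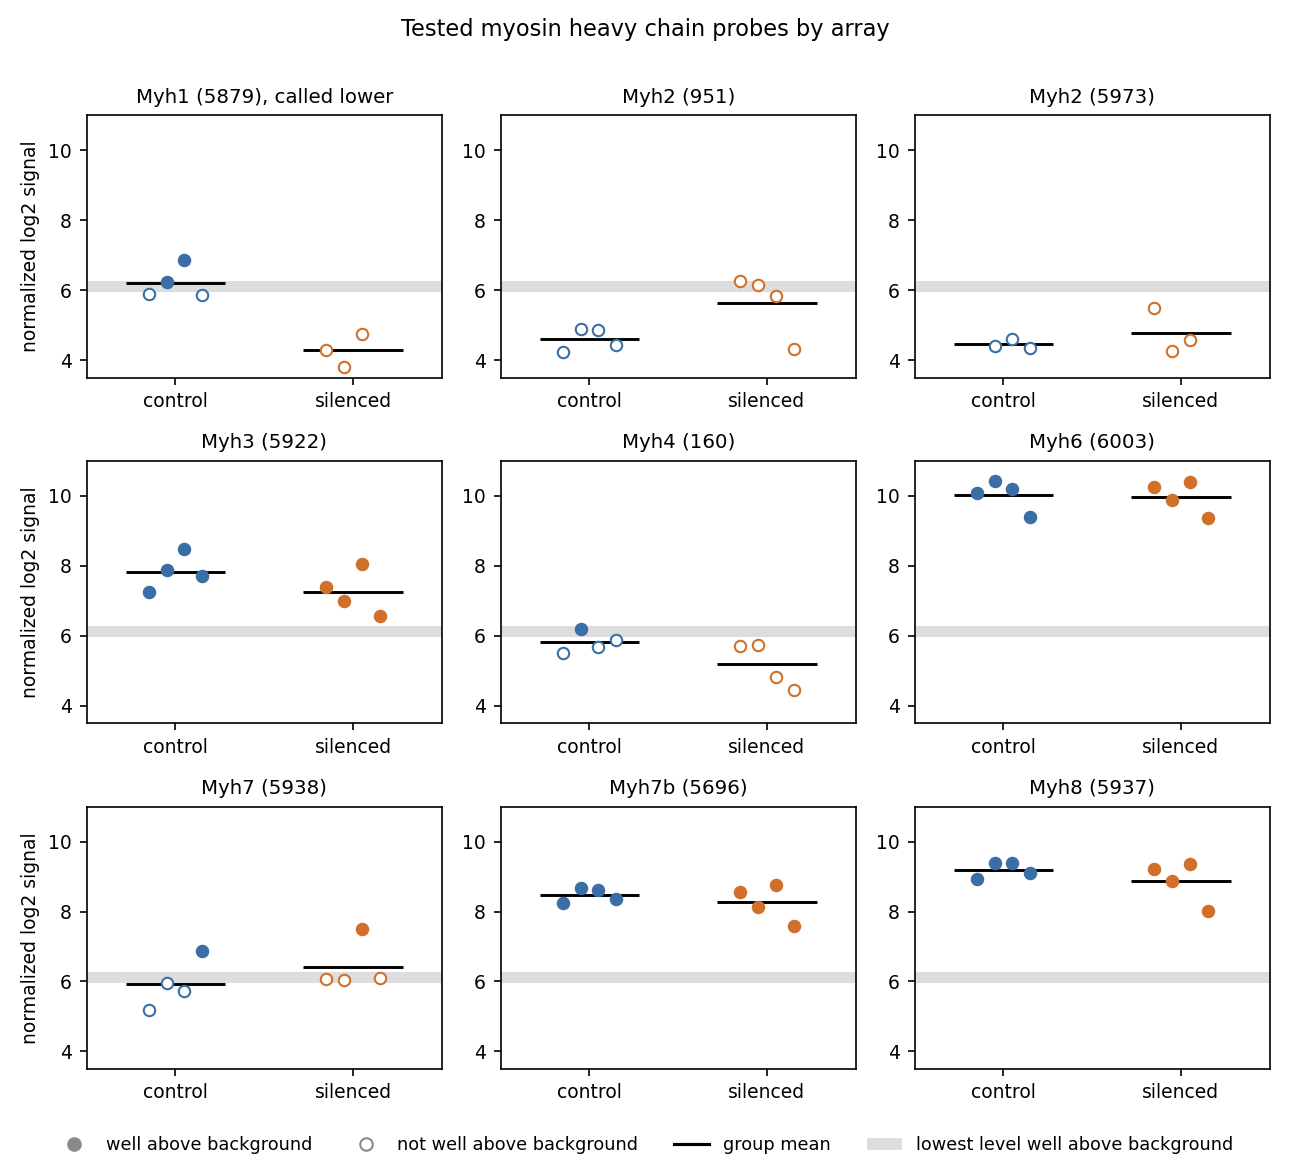
Normalized log2 signal of the 9 tested probes in each control (blue) and silenced (orange) culture. Filled points were well above background and open points were not, lines are group means, and the grey band spans the lowest level well above background on the 8 arrays (5.99 to 6.25). In the Myh1 panel alone the groups lie apart.

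Among the fast forms of adult muscle, Myh1 (type IIx) was the only one called. Its probe gave normalized log2 values of 5.90, 6.23, 6.85 and 5.87 in control replicates 1 to 4. In the silenced cultures it gave 4.28, 3.81 and 4.74 in replicates 1 to 3, and in replicate 4 the spot was not positive and significant, so that array carries no value in the fit. All silenced values lay below all control values. The change was -1.93 (SE 0.33, limma adjusted p 0.00452), with a 95% interval from -2.68 to -1.19, or -1.74 relative to the median of all probes. The spot was well above background on 2 control arrays (replicates 2 and 3) and on none of the silenced arrays, so its level in the silenced cultures is only a bound. Against the mean over the 4 silenced arrays of their lowest level well above background (6.17), Myh1 was at least 1.03-fold lower, with measured means of 6.21 in the controls and 4.28 in the silenced cultures. On single silenced arrays that level ran from 6.04 to 6.25, and at the highest of them, on replicate 4, the control mean lay below it and no fold can be given. The change was -2.05 among arrays in the first row of the slide, which held 1 silenced array, and -1.59 among those in the second, which held 1 control array. It kept its call under each of the 18 alternatives in which it was tested, at -2.17 to -1.70 in 17 of them and at -0.60 with normexp background correction and an offset of 50. Under a mask for spots not well above background, and among probes with values on all 8 arrays, it could not be tested.

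Myh2 (type IIa) gave no value well above background. Its probe at base 951, on a transcript model outside RefSeq, read 4.23, 4.88, 4.86 and 4.45 in the controls and 6.25, 6.15, 5.84 and 4.31 in the silenced cultures. Replicates 1 to 3 of the silenced group lay above all controls, and replicate 4 lay within the controls' range. The change of 1.03 (SE 0.41) did not pass the test (limma adjusted p 0.0987, exact permutation p 0.114). Without silenced replicate 4 it was 1.47 and was called higher (adjusted p 0.00335). It was also called after a shift to the 75th percentile (1.42), with cyclic loess (1.28), without mask (1.33) and in the authors' series table (1.35), and in those 5 fits 8.82% to 24.7% of all probes were called higher. Without mask, silenced replicate 4 read 5.33, above the highest control (4.71). No fold is given, since neither group held a spot well above background.

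The other Myh2 probes showed no change that could be measured. The 3′ probe read between 4.36 and 4.60 in 3 controls and between 4.26 and 5.48 in 3 silenced cultures, with overlap (change 0.31, adjusted p 0.565). The 5′ probe printed above stayed between 3.83 and 3.88 without mask.

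Myh4 (type IIb), the fastest form, was also close to background. Its probe at base 160 read 5.51, 6.19, 5.67 and 5.88 in the controls and 5.71, 5.74, 4.83 and 4.45 in the silenced cultures, and only control replicate 2 was well above background. The groups overlapped and the change of -0.63 (SE 0.32) did not pass the test (limma adjusted p 0.191), and was -0.39 without silenced replicate 4 and -0.25 after the shift to the 75th percentile. The 3′ probe was positive and significant on 4 control arrays and on 1 silenced array, so it was not tested. Without mask it changed by -0.52, with an adjusted p of 0.621.

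The 3′ probes of the developmental forms were well above background on every array, and neither passed the test. The 3′ probe of Myh3, the embryonic form, read 7.26, 7.89, 8.49 and 7.71 in the controls and 7.39, 7.01, 8.06 and 6.56 in the silenced cultures. The groups overlapped over most of their range. The change was -0.58 (SE 0.36), with a 95% interval from -1.39 to 0.22 (limma adjusted p 0.278, exact permutation p 0.229). The interval runs from 0.383-fold to 1.17-fold of the control level. The change was -0.35 without silenced replicate 4 and -0.36 without control replicate 3. It was -0.30 after the shift to the 75th percentile, -0.21 with cyclic loess, -0.23 in the authors' series table, -0.25 without mask and -0.34 with normexp.

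For Myh8, the perinatal form, the 3′ probe read 8.94, 9.38, 9.38 and 9.10 in the controls and 9.23, 8.87, 9.37 and 8.02 in the silenced cultures. Of the silenced values only that of replicate 4 lay clearly below the controls. The change was -0.33 (SE 0.30), with a 95% interval from -1.01 to 0.35 (limma adjusted p 0.474, exact permutation p 0.4), which spans 0.498-fold to 1.27-fold. Without silenced replicate 4 the change was -0.046, and with cyclic loess, without mask and in the authors' series table it lay between -0.036 and -0.021. The Myh8 and Myh1 probes, which share the 19 bases shown above, thus differed in whether they were called, and the difference between their changes was not tested.

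The cardiac and slow forms did not pass the test either. The 3′ probe of Myh6 read 10.10, 10.43, 10.20 and 9.40 in the controls and 10.27, 9.89, 10.41 and 9.36 in the silenced cultures, with nearly the same range in both groups. Its change was -0.05 (SE 0.30), with a 95% interval from -0.73 to 0.63 (limma adjusted p 0.926), or 0.603-fold to 1.54-fold. Its probe at base 308 was never well above background and was not tested.

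Myh7, the slow and ventricular form, lay near background on most arrays. Its 3′ probe read 5.19, 5.96, 5.74 and 6.86 in the controls and 6.07, 6.03, 7.50 and 6.09 in the silenced cultures, and was well above background on control replicate 4 and silenced replicate 3 alone. The groups overlapped and the change was 0.48 (SE 0.43, limma adjusted p 0.453). It was 0.13 without silenced replicate 3, 0.23 without control replicate 1 and 0.79 without control replicate 4. It was 0.060 with the row of the slide as a block. Within the first row it was 0.44, with silenced replicate 1 as the only silenced array, and within the second -0.32, with control replicate 4 (6.86) as the only control. The other Myh7 probe was at the floor on 7 arrays and very bright on silenced replicate 4.

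Myh7b, the slow-tonic form, read 8.23, 8.68, 8.62 and 8.36 with its 3′ probe in the controls. In the silenced cultures it read 8.57, 8.13, 8.76 and 7.58, and replicate 4 was again the lowest array. The change was -0.22 (SE 0.28), with a 95% interval from -0.84 to 0.41 (limma adjusted p 0.624), or 0.56-fold to 1.32-fold. The signs of the Myh6 and Myh7b changes turned positive under the shift to the 75th percentile, cyclic loess, the authors' series table, the fit without mask and the fit without silenced replicate 4, with no call.

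The low values of silenced replicate 4 appeared after masking. Without mask that array read 7.52 for Myh3, 8.89 for Myh8, 10.09 for Myh6 and 8.49 for Myh7b, each within the range of the other 7 arrays, whereas after masking it was the lowest of the 8 arrays for all 4 genes.

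**Figure D4:**
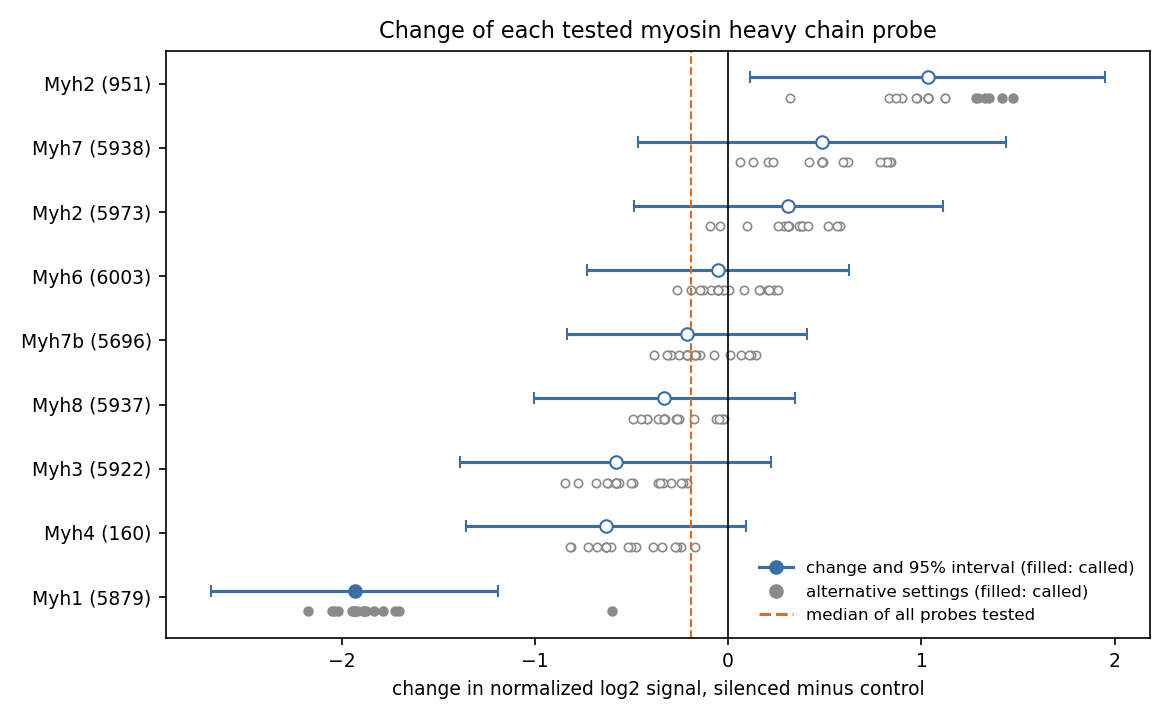
Change in normalized log2 signal (silenced minus control) of the 9 tested probes with its 95% interval (blue, filled where called), and the change under each alternative setting (grey, filled where called). The dashed line is the median of all probes tested, -0.19. Myh1 at -1.93 is the only probe called in the main comparison.

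Across the 8 arrays, the bright members moved together to differing degrees, which is given as a description since all points share the low silenced replicate 4 and the same scaling. The normalized log2 values of Myh7b and Myh8 had a Pearson correlation of 0.98, and those of Myh3 and Myh6 one of 0.58. Without mask these were 0.80 and 0.29. Among 22384 probes of other genes with values on all 8 arrays, the 3 most like Myh8 were those of Actn4, Ssr3 and Efcab11 (0.99 each). For Myh7b they were Myh8, Plekha1 and Pkib (0.98 each), and for Myh6 they were Tnni3 (0.92), Adam5 and 9330175E14Rik (0.91 each). For Myh3 they were Rbm27, Brip1 and Lmo4 (0.99 each). The best match of each of Myh2, Myh4 and Myh7, whose brightest probes were not well above background on most arrays, was Kif3c (0.99), Ttc16 (0.99) and Sptan1 (0.95).

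Of 6 other conventional heavy chains, each taken by its brightest probe, 5 were tested and 0 were called in either direction by limma, with 2 called higher by the methods' t-test at an unadjusted p of 0.05. The non-muscle chain Myh9 read 15.65 ± 0.24 (SD, n = 4) in the controls and 15.71 ± 0.05 (n = 4) in the silenced cultures. Myh10 read 12.55 ± 0.15 and 12.38 ± 0.21. Myh13, which lies beside Myh8 on chromosome 11, was well above background on all 8 arrays at 9.33 ± 0.16 and 9.07 ± 0.62 (change -0.26, adjusted p 0.582). Myh15 was at the floor. Both remaining chains had higher means in the silenced cultures, with overlap, and did not pass the test. Myh14, a non-muscle chain, changed by 0.91 (adjusted p 0.0643), was called higher in 7 of 19 alternatives, and was well above background on 1 control and 3 silenced arrays. Myh11, the smooth muscle chain, changed by 0.79 (adjusted p 0.0799), was called higher in 6 of 19, and was well above background on 0 control and 2 silenced arrays. Without control replicate 3 both were called higher, and without silenced replicate 4 Myh14 was. After the shift to the 75th percentile 3 of the 5 were called higher, beside 24.7% of all probes. 2310065F04Rik (linc-Myh), a long non-coding RNA of fast fibres with its probe between those of Myh3 and Myh2, was well above background on no array.

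Of 12 myosin light chain genes 10 were tested and well above background on all 8 arrays. Only Myl6b, a non-muscle and slow-muscle light chain, was called, beside 4.79% of all probes called higher and 18.4% lower. It rose from 10.13 ± 0.17 (SD, n = 4) to 11.22 ± 0.27 (n = 4) (change 1.10, adjusted p 0.00572). The median change of the 10 was -0.12, and 0.17 after the shift to the 75th percentile. It was -0.012 without silenced replicate 4, -0.19 and -0.24 without silenced replicates 1 and 3, and -0.21 without control replicate 1. The muscle light chains Myl1 (10.55 ± 0.35 against 10.43 ± 0.29) and Myl2 (10.80 ± 0.13 against 10.56 ± 0.46) were bright in both groups and did not pass the test. Mylpf, the fast-muscle regulatory light chain, changed by -0.66 (95% interval -1.19 to -0.13) and missed the threshold (adjusted p 0.0718). It was called lower in 8 of 20 alternatives, among them the 75th percentile shift, cyclic loess, normexp, the authors' series table and the fit without mask (adjusted p 0.0349).

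Among 17 thick filament partners and myosin chaperones, 11 were tested, with 2 called higher and 2 lower, against 4.79% and 18.4% of all probes. Their median change was 0.13. The median rested on single arrays, at 0.63 without silenced replicate 2, 0.33 without control replicate 1, -0.05 without silenced replicate 1 and -0.23 without silenced replicate 3. After the shift to the 75th percentile 5 were called higher and 2 lower, beside 24.7% and 15.2% of all probes. Mybph, a myosin-binding protein of the thick filament, read 7.35 ± 0.47 (SD, n = 4) in the controls, where all 4 arrays were well above background, and 4.68 ± 0.67 (n = 4) in the silenced cultures, where none was. It was at least 2.28-fold lower (adjusted p 0.00133). Hsp90aa1, a chaperone used in folding the myosin motor, fell by 0.96 (adjusted p 0.0118). Trim54, a ubiquitin ligase of the sarcomere, rose by 1.86 (adjusted p 0.00119), and Unc45a, the general myosin chaperone, rose by 0.76 (adjusted p 0.0347). The calls of Trim54 and Mybph held in every alternative in which they were tested. That of Unc45a was lost in 9 of 20, and that of Hsp90aa1 in 2 of 20, with the row of the slide as a block and in the methods' t-test after adjustment. Unc45b, the muscle form, stayed below that level on every array.

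Of 22 regulators of myosin heavy chain genes, 19 were tested, with 0 called higher and 3 lower, against 4.79% and 18.4% of all probes. Their median change was 0.10. The median was 0.02 without control replicate 1, -0.06 without control replicate 3, 0.06 and 0.04 without silenced replicates 1 and 2, -0.11 without silenced replicate 3, 0.19 without silenced replicate 4, and 0.49 after the shift to the 75th percentile. By the methods' t-test at an unadjusted p of 0.05, 2 of the 19 were higher, beside 7.79% of all probes. After the shift to the 75th percentile 5 were called higher and 1 (Myod1) lower, beside 24.7% and 15.2% of all probes. Myod1, which commits cells to the muscle lineage, fell from 13.42 ± 0.41 (SD, n = 4) to 11.47 ± 0.31 (n = 4), a change of -1.95 (adjusted p 0.0013) that held in all 20 alternatives. Tead1 fell by 0.74 (adjusted p 0.0212) and Srf by 0.71 (adjusted p 0.0415), both factors that bind muscle promoters. The call of Tead1 was lost in 7 of 20 alternatives and that of Srf in 11 of 19, the shift to the 75th percentile among them. Myog, a transcription factor of muscle differentiation, read 8.17, 8.30, 4.96 and 8.41 in the controls. It read 7.81, 7.89, 7.84 and 6.83 in the silenced cultures, and did not pass the test (change 0.13, adjusted p 0.917). Without control replicate 3 all silenced values lay below the controls, with a change of -0.70 and an adjusted p of 0.111.

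**Figure D5:**
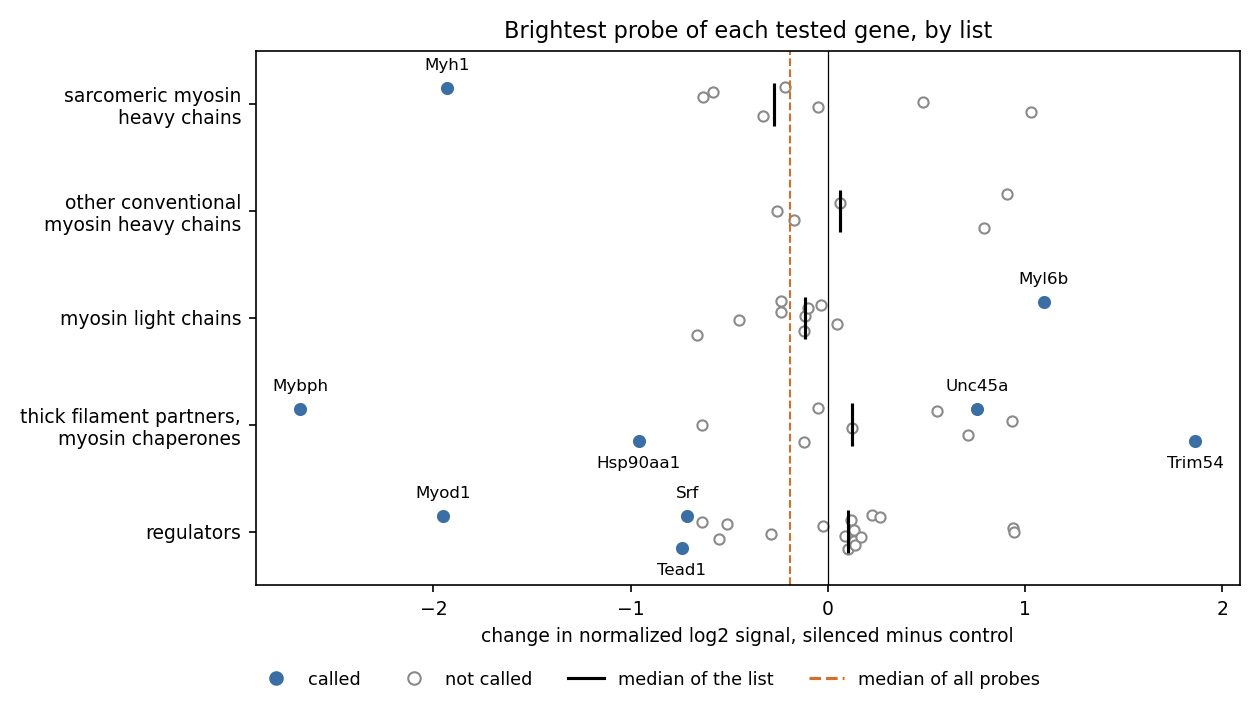
Change in normalized log2 signal (silenced minus control) of the brightest probe of each tested gene, by list. Filled points with names were called, black bars are list medians, and the dashed line is the median of all probes, -0.19. The cell type marker lists are not drawn. Among the lists drawn, medians lie between -0.27 for the 8 brightest sarcomeric heavy chain probes (0.05 with cyclic loess) and 0.13 for the thick filament partners.

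Markers of myoblasts, differentiated muscle and heart were read beside the myosins. Of 10 myoblast markers 10 were tested. Of these, 4 were called lower (Myod1, Des, Cdh15 and Msc) and 0 higher, against 18.4% and 4.79% of all probes. Cdh15 lost its call in 5 of 20 alternatives and Msc in 4. Thus 2 were called lower without control replicate 2, without control replicate 4, and with the row of the slide as a block. In those fits 8.98% to 10.6% of all probes were called lower. After the shift to the 75th percentile 2 were higher and 3 lower, beside 24.7% and 15.2% of all probes. With cyclic loess 2 were higher and 4 lower, beside 18.9% and 18.4% of all probes. Of 12 markers of differentiated skeletal muscle 11 were on the array and 9 were tested. Of these, 1 was called higher and 2 lower, against 4.79% and 18.4% of all probes. Acta1, skeletal actin, fell by 1.88 (adjusted p 0.00128) and Atp2a1, the calcium pump of fast fibres, fell by 2.37 (adjusted p 0.00536), while Tnni2, fast troponin I, rose by 1.02 (adjusted p 0.0146). The call of Tnni2 was lost with the row of the slide as a block and without control replicate 2. Over the 10 genes with a value on every array, which leaves out Mb, mean log2 signal without mask ran from 8.19 to 8.36 in the controls and from 7.99 to 8.17 in the silenced cultures. The genes did not move one way, since without mask Acta1 changed by -1.65, Atp2a1 by -2.06 and Tnni2 by 1.26, with a median of 0.0067 over 11 genes. Pvalb and Casq1 were well above background on no array. Of 10 heart markers 8 were tested and 0 were called by limma, with 1 higher by the methods' t-test at an unadjusted p of 0.05. This was Nppb, a natriuretic peptide, which changed by 0.77 (adjusted p 0.0506) and read higher on all silenced arrays than on any control. It was called higher in 10 of 20 alternatives, among them the 75th percentile shift, cyclic loess, normexp and the fit without mask (adjusted p 0.0016). Myl7, Ryr2, Tbx20 and Kcnj3 were well above background on no array, and over the 9 heart genes with a value on every array the mean ran from 6.82 to 7.09 in the controls and from 7.06 to 7.16 in the silenced cultures. The part of these shifts in the Myh1 result was not tested.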

How the data were processed

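RNA of 8 cultures of proliferating C2C12 cells was analysed, 4 silenced for Pvt1 and 4 controls. Linear spot intensity was taken from the deposited scanner output of 1 slide and 1 scan. Per the file headers Feature Extraction 12.0.0.7 wrote them, while the labels name 10.7.3.1. Intensity values of the authors' series table served as an alternative. Flags (0 or 1, recorded as other) came from the deposited files.

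From the processed intensity that the authors deposited, log2 values were computed. Spots not positive and significant were set to missing, arrays were quantile normalized and spots of a probe averaged, as the study's methods state. Spots flagged by the scanner software as non-uniform or population outliers were also set to missing in every setting, that without mask included. The study's methods do not name this step. Control spots were left out. Probes with at least 3 values of 4 per group were fitted with limma 3.58.1 (R 4.3.3), group as the only term, Benjamini-Hochberg over all probes at 0.05. Where no array of a group held a probe well above background, a bound was taken from the lowest level well above background on each array. The smallest p of the exact two-sided permutation test is 0.0286. Genes were named as on the array, and of 13 member probes with a RefSeq accession, 13 matched the RefSeq gene table (GRCm38.p6) under the same symbol. The myosins were named with all probes. From the other lists, genes that were called or that a result turned on were named, each by its brightest probe. The genes, lists and tests were chosen with earlier results of these data known. The fit was tested on simulated data. The number of arrays limits the precision. Figures were drawn with matplotlib 3.10.9.

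Alternatives were other normalizations (75th percentile, cyclic loess), normexp, the series table, other masks, complete probes, and the replicate number or slide row as a block. Further ones were a robust trended prior, an unequal-variance t-test, leaving out each array, and 1 probe per gene. That t-test used parametric p-values, adjusted by Benjamini-Hochberg or unadjusted. The study's methods describe permutation p-values with Bonferroni correction, for fast against slow fibres.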

Additional observations from a re-analysis of the deposited data

Results flagged for a closer look

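One array lay far from the other 3 of its group for a pair of Myh7 probes in the silenced cultures, one on each scale. Where all values are measured, chance gives about 1 in 20 such groups. After masking this held for 1 of 17 groups with 4 values. Without mask it held for 4 of 25 groups with a spot positive and significant. That count cannot be set against 1 in 20. For Myh7 at base 3534, the Myh4 3′ probe and Myh8 at base 2202, only 1 silenced spot was positive and significant. With the others near the floor, such a group is bound to hold an outlying array. The Myh7 probe at base 3534 read 15.3 on silenced replicate 4 and 3.80 on the other silenced arrays (log2 without mask). Its processed intensity was 35891 there and 11.6 to 15.2 on the other 7 arrays. The spot was not an outlier by the scanner flag. Its pixels varied by 27.5% (SD over mean), against a median of 6.90% over 3039 spots of similar brightness on that array. The next spot in its column, 2 rows away, which carries Notumos, was bright on the same array alone, at 5526 against 11.6 to 15.2. Of 78 spots within 4 rows and columns, 2 lay over 1.5 log2 above the other silenced arrays, and the median deviation was 0.02. Probes that exceeded every other array by at least 10 log2 numbered 7 on silenced replicate 4 and 0 to 6 on the others.

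The 3′ probe of Myh7 read 7.50 on silenced replicate 3, against 6.03 to 6.09 on the other silenced arrays (normalized log2). It stood apart only after masking, since without mask the silenced arrays read 5.99, 5.98, 7.33 and 7.05, with replicate 4 beside replicate 3. The other 3 groups without mask were the Myh4 3′ probe (5.32 on silenced replicate 3, 3.85 to 3.88 on the other silenced arrays), Myh8 at base 2202 (5.06 on silenced replicate 3, 3.84 to 3.88 on the others) and the Myh6 3′ probe (9.14 on control replicate 4, 10.08 to 10.26 on the other controls).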

How the results depend on the processing

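The count of myosin heavy chain probes called lower stayed at 1, and that called higher at 0, except as follows. The count called lower was 0 under the mask for spots not well above background and among complete probes only, where Myh1 was not tested. The count called higher was 1 with the 75th percentile shift, cyclic loess, the authors' series table, no mask, and without silenced replicate 4, and that probe was the Myh2 probe at base 951. Leaving out each array gave 0 to 1 higher and 1 lower. With 1 probe per gene the counts were 0 and 1. The replicate numbers did not pair the samples (correlations of deviations -0.04, 0.19, 0.22 and 0.06). With the replicate block the counts were 0 higher and 1 lower, Myh1 changed by -2.05, and over all probes 1023 were called higher and 3994 lower (534 and 2572 with the slide row block). The change of the Myh2 3′ probe reversed to -0.10 with the replicate block and to -0.044 without silenced replicate 1 (-0.044 to 0.56 over single arrays left out). The change of Myh6 reversed to 0.24 (75th percentile), 0.16 (cyclic loess), 0.21 (series table), 0.21 (no mask), 0.26 (slide row block), and to 0.083, 0.0061 and 0.16 without control replicates 2 and 3 and silenced replicate 4 (-0.26 to 0.16 over single arrays left out). The change of Myh7b reversed to 0.068, 0.14, 0.12 and 0.11 in the first 4 of these settings and to 0.012 without silenced replicate 4 (-0.38 to 0.012 over single arrays left out). None of these was called, and the cause was not tested. The remaining probes (Myh1, Myh2 at base 951, Myh3, Myh4 at base 160, Myh7 and Myh8) kept their direction in every setting in which they were tested, with changes that ran from -0.49 to -0.021 for Myh8, 0.060 to 0.84 for Myh7, -0.85 to -0.21 for Myh3 and -0.82 to -0.17 for Myh4. Signal near background limits Myh1, Myh2, Myh4 and Myh7.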
